A study of Mus musculus with 16 samples.

Results

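Chemokines and their receptors were followed in the RNA of fat from mice fed a high-fat diet. The family was taken by name from the deposited table: genes named Ccl, Cxcl, Xcl or Cx3cl with a number (ligands) and Ccr, Cxcr, Xcr, Cx3cr or Ackr with a number (receptors), where 1 FPKM or more was reached in 2 or more libraries. FPKM counts sequenced fragments per length of transcript and per number of mapped reads, so levels can be set side by side between genes. Of 13669 genes that met this limit, 43 were members, 27 ligands and 16 receptors, and all 43 were tested. Another gene with a matching name, Ccr10, reached 1 FPKM in 1 library (0.304 to 1.07 FPKM) and was left out. The choice used names and levels, and no test between groups. Levels can still differ by group: Ccr3 and Cxcl2 reached 1 FPKM only in eWAT, and Ccr6, Ccl17 and Cxcr2 only in iWAT. Ackr4 met the limit only through the eWAT K107R vehicle libraries. Calls of these members as higher on those sides are not independent of the choice.

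The mice were homozygous for the K107R change in PPARg, the nuclear receptor that drives fat cell formation, or were wild type (WT). In the mutant the lysine that takes a SUMO group is replaced by arginine. All mice ate chow for 10 weeks and then a diet with 60% of calories from fat for 19 weeks, and were gavaged for 1 week with rosiglitazone, an agonist of PPARg, at 10 mg/kg in 1% methylcellulose or with methylcellulose alone (vehicle). Epididymal fat (eWAT) and inguinal fat (iWAT) were taken. The 8 groups were K107R with rosiglitazone, K107R with vehicle, WT with rosiglitazone and WT with vehicle in eWAT, and the same 4 in iWAT, with 2 libraries each, numbered 1 and 2. Neither separate mice for the libraries of a group nor shared mice for the depots are stated in the labels. The p-values therefore rest on how libraries of a group differ, and that spread may be technical.

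Chemokines are small secreted proteins that hold on to proteoglycans of vessels and matrix and steer leukocytes along a gradient through receptors coupled to G proteins. Atypical receptors bind the same ligands without the usual signal. Several take them out of the tissue, while Ackr1 carries them across venules. In the fat of obese mice, the ligand Ccl2 and its receptor Ccr2 are known for the entry of monocytes that become macrophages, while Ccl19, Ccl21a and Cxcl13, with the receptors Ccr7 and Cxcr5, arrange T and B cells in lymph nodes, one of which is embedded in the inguinal fat pad.

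The promoter windows of 3 members are shown. Ccl8 was taken for its difference between genotypes in the rosiglitazone response of eWAT and Ccl19 for the same in iWAT. Both calls depended on the processing, as given below. Cxcl10 was taken as a ligand that interferon is known to induce. It passed in no comparison unless the replicate number was fitted as a block. The windows run from 250 bases before to 50 after the start of the gene on its own strand (RefSeq, GRCm38.p6). Windows were found for 33 of the 43 members. Capitals mark matches, on either strand, to TATAAA (the TATA box), TTTC and TTTC with any 2 bases between them (a core of interferon response elements) or GGG and TTCC with any 3 bases between them (a core of NF-kB sites).
Ccl8: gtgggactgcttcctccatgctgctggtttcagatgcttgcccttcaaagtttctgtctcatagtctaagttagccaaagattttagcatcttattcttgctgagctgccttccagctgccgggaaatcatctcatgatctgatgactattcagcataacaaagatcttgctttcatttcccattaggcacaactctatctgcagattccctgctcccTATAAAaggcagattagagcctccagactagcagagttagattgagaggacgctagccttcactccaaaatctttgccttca
Ccl19: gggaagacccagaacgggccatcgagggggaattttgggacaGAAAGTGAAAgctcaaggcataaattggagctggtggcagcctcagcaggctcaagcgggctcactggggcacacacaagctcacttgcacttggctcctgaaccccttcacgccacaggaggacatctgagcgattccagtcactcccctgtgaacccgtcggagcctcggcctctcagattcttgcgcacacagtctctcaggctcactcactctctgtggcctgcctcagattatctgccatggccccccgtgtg
Cxcl10: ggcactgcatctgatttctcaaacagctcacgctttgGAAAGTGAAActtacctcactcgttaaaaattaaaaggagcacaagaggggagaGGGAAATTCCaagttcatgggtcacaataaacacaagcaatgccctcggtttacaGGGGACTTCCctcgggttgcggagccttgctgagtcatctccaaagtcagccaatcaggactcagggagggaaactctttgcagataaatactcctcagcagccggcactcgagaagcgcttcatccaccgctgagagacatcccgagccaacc
The Ccl8 window lies at chr11:82114935-82115234 on the plus strand and holds TATAAA from base -32, counted from the start of the gene. The Ccl19 window (chr4:42756316-42756615, minus strand) holds GAAAGTGAAA, a match to the interferon response core on the opposite strand, from base -208. The Cxcl10 window (chr5:92348840-92349139, minus strand) holds GAAAGTGAAA from base -213, GGGAAATTCC from base -159 and GGGGACTTCC from base -104, none of them overlapping. Of 32851 such windows in the genome, 13.6% hold TATAAA, 3.44% hold the interferon response core and 5.56% the NF-kB core, counting both strands. Of 37 windows that belong to members, 10 hold TATAAA, 3 the interferon response core (those of Ccl19, Cxcl10 and Cxcl14) and 6 the NF-kB core. These matches describe letters in a window and are not shown to be sites in use.

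Several libraries stood apart before any comparison. The median FPKM of all genes was 8.95 to 9.61 in the libraries with number 1 and 5.36 to 8.83 in those with number 2, and many members were higher in number 1 within a group. Libraries with the same number deviated together from their group means, so counts of members called are also given with the replicate number as a block. The group eWAT K107R rosiglitazone followed this shift least (median FPKM 8.95 and 8.83 in libraries 1 and 2). Block results that include it rest on a shift it may not share. Members that passed only with the block are named for the rosiglitazone, genotype and interaction comparisons. For the depots only Ccr2 is named. The summed FPKM of 6 epididymis genes was 3564 and 3269 in the eWAT K107R vehicle libraries and at most 5.60 in every other library, so those libraries hold RNA of the epididymis. The fat cell genes Adipoq, Plin1, Cidec, Lep, Lipe and Retn summed to 4967 to 8308 FPKM in eWAT and 7959.9 to 14047 FPKM in iWAT. Both tissues thus carried genes of fat, which do not show the depot. Mesothelium genes summed to 44.6 to 71.2 FPKM in eWAT and 1.34 to 4.61 FPKM in iWAT.

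All 43 members had a value above 0 in all 16 libraries, and 27 reached 1 FPKM in every library. Between 34 and 41 members reached 1 FPKM in any one library. The ligand with the highest mean over the 16 libraries was Ccl6 (149 FPKM), a mouse ligand of Ccr1, followed by the eosinophil attractant Ccl11 (85.1 FPKM), the Cxcr4 ligand Cxcl12 (72.9 FPKM), Ccl9 (66.2 FPKM) and Ccl5 (59.6 FPKM). Receptors were lower: the atypical receptor Ackr3, which binds Cxcl12, had the highest mean (33.1 FPKM), and the atypical receptor Ackr1 was at 10.3 FPKM. The lowest members were Ccr3 (0.531 FPKM), Cxcr2 (0.744 FPKM), Ackr4 (0.891 FPKM), Ccl17 (0.944 FPKM) and Cxcl2 (0.984 FPKM).

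**Figure D1:**
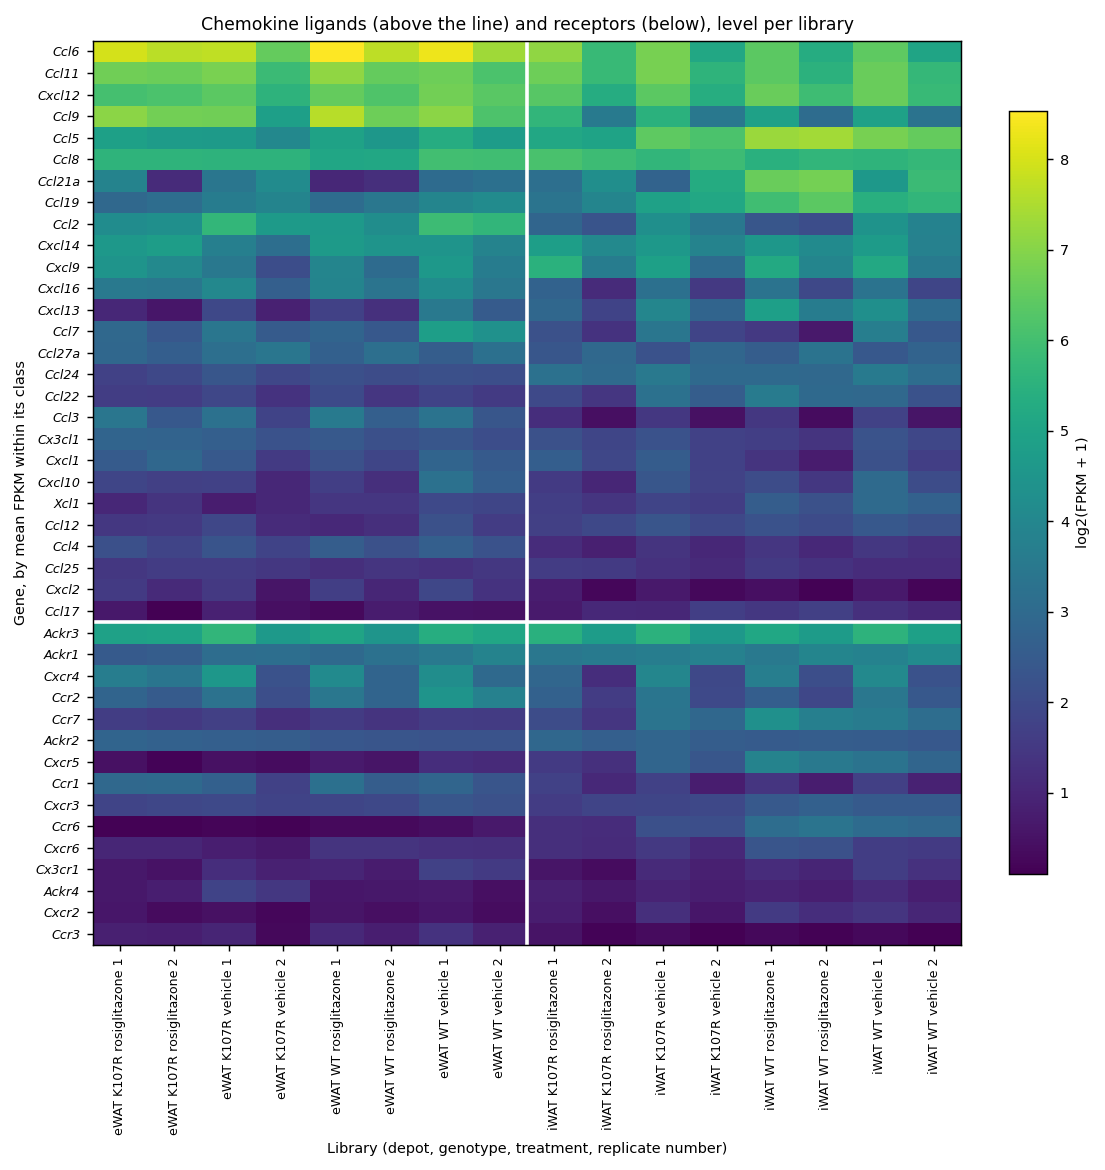
Level of 42 of the 43 members (rows, ligands above the white line and receptors below it, each ordered by mean FPKM) in each of the 16 libraries (columns), as log2(FPKM + 1) by colour. Ccl6 tops the ligands with a mean of 149 FPKM and Ackr3 the receptors with 33.1 FPKM, and the eWAT and iWAT columns differ for Ccl5, Ccl9, Ccr6 and Cxcr5.

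Of the 43 members, 12 (8 ligands and 4 receptors) passed the test in no comparison without the block, and several of these were abundant. Ccl11 was at 104 and 99.8 FPKM in the libraries 1 and 2 of eWAT K107R rosiglitazone, 113 and 56.1 in eWAT K107R vehicle, 139 and 91.2 in eWAT WT rosiglitazone and 101 and 70.1 in eWAT WT vehicle. In iWAT it was at 102 and 53.5 FPKM in K107R rosiglitazone, 109.7 and 47.4 in K107R with vehicle, 84.3 and 44.4 in WT with rosiglitazone and 96 and 51.5 in WT vehicle. Number 1 was above number 2 in every group, and the depots overlapped. Cxcl12, which retains haematopoietic cells and lymphocytes in tissue, was at 65.4 and 69.2 FPKM in eWAT K107R rosiglitazone, 84.2 and 45.5 in eWAT K107R vehicle, 91.7 and 73.2 in eWAT WT rosiglitazone and 106.8 and 82.1 in eWAT WT vehicle. Its iWAT values were 81.1 and 38.5 FPKM in K107R rosiglitazone, 84.6 and 39.5 in K107R with vehicle, 95.5 and 59.6 in WT with rosiglitazone and 96.2 and 54 in WT vehicle. Library 1 was above library 2 in every group but eWAT K107R rosiglitazone, and the depots overlapped.

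Cxcl14, a ligand of epithelia and fat with broad attractant activity, was at 23 and 26.9 FPKM in eWAT K107R rosiglitazone, 12.4 and 7.79 in eWAT K107R vehicle, 24.8 and 21.1 in eWAT WT rosiglitazone and 21 and 13.6 in eWAT WT vehicle. In iWAT it was at 27.1 and 15.9 FPKM in K107R with rosiglitazone, 23.2 and 13.7 in K107R with vehicle, 22.6 and 16.6 in WT with rosiglitazone and 25.3 and 13.1 in WT with vehicle. In eWAT the 4 rosiglitazone libraries were above the 4 vehicle libraries, by the least margin in WT, while in iWAT the treatments overlapped. The interferon-induced Cxcr3 ligand Cxcl9 was at 21.1 and 15.6 FPKM in eWAT K107R rosiglitazone, 10.3 and 3.28 in eWAT K107R vehicle, 14.2 and 7.33 in eWAT WT rosiglitazone and 22.9 and 11.6 in eWAT WT vehicle. In iWAT, Cxcl9 was at 44.2 and 11.5 FPKM in K107R rosiglitazone, 28.9 and 7.29 in K107R with vehicle, 36.8 and 14.4 in WT with rosiglitazone and 35.2 and 10.7 in WT vehicle. Within every iWAT group, library 1 exceeded library 2 by more than the group means differed.

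The skin and fat ligand Ccl27a, which has near-identical copies in the mouse genome so that its value is uncertain, was at 6.47 and 5.08 FPKM in eWAT K107R rosiglitazone, 8.07 and 9.53 in eWAT K107R vehicle, 5.48 and 8.03 in eWAT WT rosiglitazone and 5.07 and 8.31 in eWAT WT vehicle. Its iWAT values were 4.08 and 6.68 FPKM in K107R rosiglitazone, 3.71 and 6.33 in K107R with vehicle, 5.05 and 8.85 in WT with rosiglitazone and 4.39 and 5.96 in WT vehicle. It was one of the members that ran higher in library 2 in most groups. The neutrophil attractant Cxcl1 was at 4.75 and 6.6 FPKM in eWAT K107R rosiglitazone, 4.43 and 1.87 in eWAT K107R vehicle, 3.55 and 2.64 in eWAT WT rosiglitazone and 6.06 and 4.57 in eWAT WT vehicle. Its iWAT values were 5.15 and 2.75 FPKM in K107R rosiglitazone, 4.83 and 2.31 in K107R with vehicle, 1.6 and 0.681 in WT with rosiglitazone and 3.55 and 2.15 in WT vehicle. The lowest values of Cxcl1 were those of iWAT WT rosiglitazone. The other ligands of these 12 were Cxcl10 (1.02 to 8.4 FPKM over the 16 libraries) and Ccl25 (1.16 to 2.02 FPKM), the ligand of gut and thymus homing.

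Among the receptors that did not pass, Ackr3 was at 29.7 and 30.9 FPKM in K107R with rosiglitazone, 49 and 23.9 in K107R with vehicle, 31.3 and 21.6 in WT with rosiglitazone and 39.5 and 33.4 in WT with vehicle in eWAT. In iWAT, Ackr3 was at 42.4 and 26 FPKM in K107R with rosiglitazone, 44.7 and 23 in K107R with vehicle, 33.6 and 25.7 in WT with rosiglitazone and 46.4 and 28.5 in WT with vehicle. Library 1 was above library 2 in every group but eWAT K107R rosiglitazone. Cxcr4, the signalling receptor of Cxcl12, was at 11.7 and 9.28 FPKM in K107R with rosiglitazone, 22.5 and 3.69 in K107R with vehicle, 16.4 and 5.97 in WT with rosiglitazone and 17.8 and 6.83 in WT with vehicle in eWAT. In iWAT, Cxcr4 was at 6.45 and 1.31 FPKM in K107R with rosiglitazone, 14.8 and 2.79 in K107R with vehicle, 12.1 and 3.36 in WT with rosiglitazone and 15.8 and 3.64 in WT with vehicle. Its number 1 libraries were the higher ones in all 8 groups. Ccr2, the receptor of Ccl2, was at 6.02 and 4.69 FPKM in K107R with rosiglitazone, 8.74 and 3.36 in K107R with vehicle, 9.85 and 5.98 in WT with rosiglitazone and 20.9 and 13.1 in WT with vehicle in eWAT. In iWAT, Ccr2 was at 5.51 and 2.0 FPKM in K107R with rosiglitazone, 9.37 and 2.9 in K107R with vehicle, 5.12 and 2.7 in WT with rosiglitazone and 9.91 and 4.31 in WT with vehicle. Here too library 1 was above library 2 in every group, and WT vehicle had the highest library of both depots. Ackr2, which clears inflammatory CC ligands, was at 5.97 and 5.65 FPKM in K107R with rosiglitazone, 5.23 and 4.99 in K107R with vehicle, 4.26 and 3.98 in WT with rosiglitazone and 3.81 and 3.83 in WT with vehicle in eWAT. In iWAT, Ackr2 was at 6.55 and 5.33 FPKM in K107R with rosiglitazone, 6.18 and 4.94 in K107R with vehicle, 4.73 and 4.97 in WT with rosiglitazone and 4.88 and 4.3 in WT with vehicle. It varied little, and in eWAT the 4 K107R libraries were above the 4 WT libraries.

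More members differed between the depots than in any other comparison. In eWAT, Ccl2, Ccl3, Ccl6 and Ccl9 and the receptor Ccr1, known from monocytes and macrophages, were higher. Ccl5, Ccl19, Ccl21a and Cxcl13, which act on lymphocytes, were lower in eWAT, as were the lymphocyte receptors Ccr6, Ccr7 and Cxcr5. Of the 27 ligands 9 were higher and 10 lower in eWAT than in iWAT, and of the 16 receptors 3 were higher and 6 lower (limma over all 13669 genes, Benjamini-Hochberg adjusted p under 0.05, 8 libraries a depot). Of all genes, 19.9% were higher and 12.5% lower in eWAT, against 27.9% and 37.2% of the members. The members' shares include Ccr3, Cxcl2, Ccr6, Ccl17 and Cxcr2, which met the level limit through 1 depot only. Differences are given on the log2(FPKM + 1) scale, which understates those of genes at low levels. The median difference was 0.10 for the ligands, -0.09 for the receptors and 0.10 for all genes. With the libraries rescaled by their median ratio these medians were 0.01, -0.22 and -0.01. In whole tissue, fewer cells of a type and less RNA per cell cannot be told apart.

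Among the inflammatory CC ligands, Ccl9 had a lowest, median and highest value of 28.2, 105 and 196 FPKM in eWAT and 7.49, 19.9 and 48.9 FPKM in iWAT (log2 2.32 ± 0.50 SE, adjusted p = 0.00478). Ccl6 was at 92.9, 208 and 369.8 FPKM in eWAT and 31.8, 68.7 and 138 FPKM in iWAT (log2 1.72 ± 0.37 SE, adjusted p = 0.00487). The depots overlapped for both only through library 2 of eWAT K107R vehicle, the lowest of eWAT. Ccl3, made by activated macrophages, was at 2.48, 6.86 and 10.6 FPKM in eWAT and 0.312, 0.89 and 2.4 FPKM in iWAT (log2 1.87 ± 0.34 SE, adjusted p = 0.00163), and Ccl4 at 2.49, 3.62 and 5.27 FPKM in eWAT and 0.776, 1.33 and 1.75 FPKM in iWAT (log2 1.01 ± 0.13 SE, adjusted p = 0.000125). Neither of these overlapped between the depots. Ccr1, the receptor of Ccl3, was at 2.3, 5.76 and 8.19 FPKM in eWAT and 0.70, 1.36 and 2.35 FPKM in iWAT (log2 1.40 ± 0.23 SE, adjusted p = 0.000803). All 8 macrophage markers were higher in eWAT as well, and their sum was 3780.5 to 5159 FPKM in eWAT and 1078 to 1551 FPKM in iWAT. What part these cells had in the differences was not tested.

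The monocyte attractant Ccl2 was at 17.2, 24.9 and 57.5 FPKM in eWAT and 3.3, 8.21 and 20.6 FPKM in iWAT (log2 1.70 ± 0.19 SE, adjusted p = 5.92e-05), and Ccl7, another ligand of Ccr2, at 4.29, 6.47 and 27.4 FPKM in eWAT and 0.605, 3.05 and 12.1 FPKM in iWAT (log2 1.09 ± 0.31 SE, adjusted p = 0.0199). The CC ligands Ccl12 and Ccl8 ran the other way. Ccl12 was at 1.1, 1.8 and 3.53 FPKM in eWAT and 2.28, 3.34 and 4.31 FPKM in iWAT (log2 -0.58 ± 0.13 SE, adjusted p = 0.00675), and Ccl8 at 32.8, 46.5 and 61.9 FPKM in eWAT and 43.1, 50.7 and 68.3 FPKM in iWAT (log2 -0.19 ± 0.07 SE, adjusted p = 0.0451). Ccr2 itself did not pass without the block (log2 0.66, adjusted p = 0.138, with the block 0.000898). Further members higher in eWAT were the scavenger receptor ligand Cxcl16, at 5.33, 10.1 and 17.3 FPKM in eWAT and 1.19, 4.31 and 9.01 FPKM in iWAT (log2 1.19 ± 0.40 SE, adjusted p = 0.0454), and the neutrophil attractant Cxcl2, at 0.503, 1.66 and 2.76 FPKM in eWAT and 0.107, 0.285 and 0.698 FPKM in iWAT (log2 0.89 ± 0.18 SE, adjusted p = 0.00305). Cx3cl1, the membrane-bound ligand of Cx3cr1, was at 3.3, 4.32 and 5.98 FPKM in eWAT and 1.56, 2.65 and 3.81 FPKM in iWAT (log2 0.55 ± 0.12 SE, adjusted p = 0.00602). The eosinophil receptor Ccr3 was at 0.212, 0.811 and 1.54 FPKM in eWAT and 0.0714, 0.17 and 0.462 FPKM in iWAT (log2 0.63 ± 0.12 SE, adjusted p = 0.0019), while Ccl24, one of its ligands, was lower in eWAT, at 2.29, 3.25 and 4.11 FPKM in eWAT and 6.81, 7.3 and 10.8 FPKM in iWAT (log2 -1.12 ± 0.12 SE, adjusted p = 3.77e-05).

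Among the 16 members lower in eWAT were receptors and ligands of lymphocytes. Ccr6, a receptor of B cells and some T cells, was at 0.105, 0.193 and 0.581 FPKM in eWAT and 1.23, 5.0 and 9.23 FPKM in iWAT (log2 -2.09 ± 0.06 SE, adjusted p = 5.81e-09). Cxcr5, which leads B cells into follicles, was at 0.139, 0.447 and 1.32 FPKM in eWAT and 1.38, 6.18 and 13.5 FPKM in iWAT (log2 -2.05 ± 0.11 SE, adjusted p = 2.99e-07). The depots did not overlap for either receptor. Ccr7, the receptor of Ccl19 and Ccl21a, was at 1.37, 1.95 and 2.27 FPKM in eWAT and 1.7, 8.4 and 19 FPKM in iWAT (log2 -1.55 ± 0.15 SE, adjusted p = 1.76e-05), and Cxcr6, a receptor of T and NKT cells, at 0.55, 1.19 and 1.58 FPKM in eWAT and 1.12, 1.85 and 3.97 FPKM in iWAT (log2 -0.50 ± 0.07 SE, adjusted p = 0.000263). The depots overlapped for both, for Ccr7 only through library 2 of iWAT K107R rosiglitazone. The T cell attractant Ccl5 was at 15.3, 26 and 39.2 FPKM in eWAT and 31, 89.6 and 163 FPKM in iWAT (log2 -1.59 ± 0.13 SE, adjusted p = 5.38e-06), Ccl19 at 6.75, 10.6 and 17 FPKM in eWAT and 9.17, 38 and 84.5 FPKM in iWAT (log2 -1.57 ± 0.12 SE, adjusted p = 4.04e-06), and Cxcl13, the Cxcr5 ligand, at 0.542, 1.85 and 10.5 FPKM in eWAT and 2.47, 9.37 and 27.8 FPKM in iWAT (log2 -1.74 ± 0.33 SE, adjusted p = 0.00209). For all 3 ligands the medians stood well apart while the ranges overlapped.

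Ccl21a, whose near-identical copies make its value uncertain, was at 1.04, 7.81 and 16.9 FPKM in eWAT and 5.81, 30.7 and 107.5 FPKM in iWAT (log2 -2.28 ± 0.47 SE, adjusted p = 0.00367). Xcl1, a ligand that NK and T cells make for dendritic cells, was at 0.71, 1.64 and 2.89 FPKM in eWAT and 1.65, 3.07 and 7.0 FPKM in iWAT (log2 -0.77 ± 0.10 SE, adjusted p = 0.000123). The Ccr4 ligands of dendritic cells were lower too: Ccl22 was at 1.5, 2.09 and 3.01 FPKM in eWAT and 1.72, 5.82 and 11.3 FPKM in iWAT (log2 -0.97 ± 0.18 SE, adjusted p = 0.00201), and Ccl17 at 0.0907, 0.42 and 0.838 FPKM in eWAT and 0.63, 1.25 and 2.26 FPKM in iWAT (log2 -0.72 ± 0.13 SE, adjusted p = 0.00158). Ackr1, which lines venules and carries chemokines across them, was at 4.6, 7.75 and 13.6 FPKM in eWAT and 9.98, 12.5 and 17.1 FPKM in iWAT (log2 -0.63 ± 0.10 SE, adjusted p = 0.000788), and the neutrophil receptor Cxcr2 at 0.181, 0.371 and 0.54 FPKM in eWAT and 0.372, 1.15 and 1.89 FPKM in iWAT (log2 -0.57 ± 0.12 SE, adjusted p = 0.00351). Beside these, B and plasma cell markers summed to 9.06 to 55.8 FPKM in eWAT and 27.5 to 274 FPKM in iWAT, T and NK cell markers to 4.93 to 19.1 FPKM in eWAT and 12 to 87.3 FPKM in iWAT, and a lymph node list (Glycam1, Madcam1, Cr2, Fcer2a, Chst4, Ltb) to 3.68 to 9.74 FPKM in eWAT and 19.1 to 181 FPKM in iWAT. Of these lists 5 of 6, 5 of 7 and 5 of 6 genes were lower in eWAT, and 1 lymph node gene was higher. Mast cell genes (5 of 6) and mesothelium genes (5 of 5) were higher in eWAT, and fat cell genes (5 of 6) and skeletal muscle genes (4 of 4) lower. Unlike Cxcr2, the neutrophil genes S100a8 (log2 0.76) and Ngp (0.40) were higher in eWAT, and the rest of their list was not called. The neutrophil sum was 22.9 to 64.4 FPKM in eWAT and 16 to 44.9 FPKM in iWAT. Dendritic cell markers were mixed: Itgax was higher in eWAT (log2 2.84), while Cd209a (-0.89), Zbtb46 (-0.65) and Flt3 (-0.36) were lower. Their list summed to 121 to 165 FPKM in eWAT and 31.3 to 40.3 FPKM in iWAT. Glycam1, made by the high endothelial venules of lymph nodes, was listed at 0 in 5 eWAT libraries. Whether the iWAT samples held the inguinal lymph node was not tested.

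Neighbours in the genome shared a direction in some places and not in others. Ccl19 and Ccl21a, side by side on chromosome 4, were both lower in eWAT. On chromosome 11 (GRCm38) the region from 82035577 to 82116799 holds Ccl2, Ccl7, Ccl11, Ccl12 and Ccl8, of which Ccl2 and Ccl7 were higher and Ccl12 and Ccl8 lower in eWAT. From 83525778 to 83664683 lie Ccl5, Ccl9, Ccl6, Ccl3 and Ccl4, and Ccl5 was lower while the other 4 were higher. On chromosome 9, Cxcr6 was lower and the nearby Ccr1 and Ccr3 were higher, with Ccr2 not called. With the block 17 members were higher and 18 lower, against 34.8% and 21% of all genes. Ccl8 and Cxcl16 lost their call without the eWAT K107R vehicle libraries (adjusted p = 0.11 and 0.0757), and over the omission of each library in turn the adjusted p ran from 0.0272 to 0.109 for Ccl8, 0.0226 to 0.107 for Cxcl16 and 0.00625 to 0.052 for Ccl7. Ccl8 passed only without library 2 of iWAT K107R rosiglitazone or library 1 of any other iWAT group, and Cxcl16 only without library 2 of eWAT K107R vehicle or library 1 of an iWAT group. Ccl7 was lost without library 1 of eWAT K107R rosiglitazone, eWAT K107R vehicle or eWAT WT vehicle, or library 2 of iWAT WT rosiglitazone. Rescaling took Ccl8 to an adjusted p of 0.176, and a pseudocount of 0.1 took Cxcl16 to 0.0501.

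**Figure D2:**
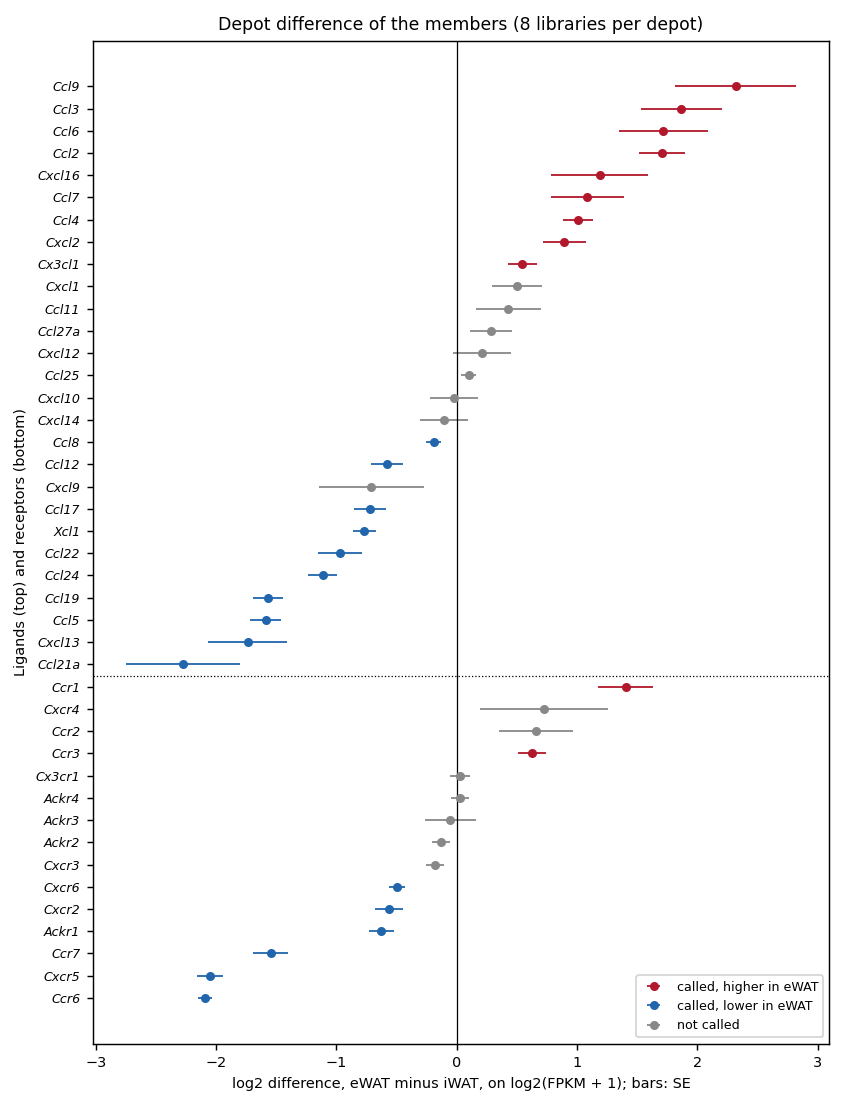
Difference between depots of 42 of the 43 members, eWAT minus iWAT on the log2(FPKM + 1) scale (points, with bars for the SE; 8 libraries a depot), ligands above the dotted line and receptors below it. Red points are higher in eWAT, led by Ccl9 at 2.32, blue points lower, led by Ccl21a at -2.28, and grey points did not pass.

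In eWAT, the monocyte attractant Ccl2 and the monocyte receptor Cx3cr1 fell with rosiglitazone, as did Ccl19 and Ccl8. In the average of both genotypes these 3 ligands and 1 receptor fell and none rose (4 rosiglitazone against 4 vehicle libraries), beside 3.58% of all genes that fell and 1.59% that rose. The fallen members are 9.3% of the 43. Ccl2 was at 17.2 and 18.5 FPKM in K107R rosiglitazone and 24.5 and 17.6 in WT rosiglitazone, against 50.9 and 25.2 in K107R vehicle and 57.5 and 49.5 in WT vehicle (log2 -1.14 ± 0.27 SE, adjusted p = 0.0372). Every rosiglitazone library was below every vehicle library, by the least margin against library 2 of K107R vehicle. Cx3cr1, the fractalkine receptor of patrolling monocytes and macrophages, was at 0.552 and 0.426 FPKM in K107R rosiglitazone and 0.955 and 0.665 in WT rosiglitazone, against 1.28 and 0.83 in K107R vehicle and 2.34 and 1.92 in WT vehicle (log2 -0.62 ± 0.12 SE, adjusted p = 0.0115). Within each genotype both rosiglitazone libraries lay below both vehicle libraries.

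Ccl19 was at 6.75 and 7.57 FPKM in K107R rosiglitazone and 7.41 and 9.79 in WT rosiglitazone, against 11.4 and 14 in K107R vehicle and 14.4 and 17 in WT vehicle (log2 -0.78 ± 0.17 SE, adjusted p = 0.0274), without overlap. Ccl8, a ligand of several CC receptors, was at 47.2 and 46.9 FPKM in K107R rosiglitazone and 32.8 and 34.4 in WT rosiglitazone, against 46.1 and 46 in K107R vehicle and 61.9 and 60.1 in WT vehicle (log2 -0.41 ± 0.09 SE, adjusted p = 0.0297). In K107R the treatments lay side by side, and in WT they were far apart. With the block 10 members fell and 2 rose (6.15% of all genes fell and 5.52% rose). The additions were the falls of Ackr1 (log2 -0.57), Ackr4 (-0.44), Ccl7 (-1.12), Cxcl13 (-1.05), Cxcl10 (-0.55) and Cxcr5 (-0.30) and the rises of Cxcl14 (0.83) and Ccr1 (0.54).

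The macrophage markers summed to 3817 and 3922 FPKM in K107R rosiglitazone and 4488 and 5127 in WT rosiglitazone, against 3780.5 and 4160.1 in K107R vehicle and 4229 and 5159 in WT vehicle, and of the 8, Mertk rose and none fell. Markers of other cells moved in the same comparison: 4 of 5 neutrophil genes (Ngp, S100a9, Retnlg and Camp) and 4 of 6 mast cell genes rose, and all 6 epididymis genes, all 5 genes of other epithelium and 2 of 4 skeletal muscle genes fell. S100a8, the other neutrophil gene, ran lower (log2 -0.64, adjusted p = 0.607, with the block 0.00978). Ngp, S100a9 and Camp passed the eWAT interaction (log2 1.97, 2.87 and 1.28). S100a9 rose in K107R (log2 2.95) and was at 2.74 and 2.04 FPKM in WT rosiglitazone against 2.75 and 1.75 in WT vehicle. The mast cell sum was 183 and 177 FPKM in K107R rosiglitazone and 398 and 383 in WT rosiglitazone, against 137 and 116 in K107R vehicle and 207 and 185 in WT vehicle. The neutrophil sum was 64.4 and 59.4 FPKM in K107R rosiglitazone and 30.1 and 22.9 in WT rosiglitazone, against 60.5 and 27.6 in K107R vehicle and 63.5 and 43 in WT vehicle, so that the sum overlapped between treatments. The part of these cells in the falls of Ccl2, Cx3cr1, Ccl19 and Ccl8 was not tested. Rescaling the libraries by their median ratio ended the calls of Ccl19 (adjusted p = 0.302) and Ccl8 (0.467). Over the omission of each of the 8 libraries, adjusted p ran from 0.0723 to 0.122 for Ccl8, 0.016 to 0.158 for Ccl2 (passing only without library 2 of K107R vehicle), 0.0434 to 0.126 for Ccl19 (passing only without library 1 of K107R vehicle or library 2 of WT rosiglitazone) and 0.011 to 0.0606 for Cx3cr1 (lost without library 2 of K107R rosiglitazone, library 2 of WT rosiglitazone or library 1 of WT vehicle).

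Within genotypes of eWAT fewer members passed. In K107R eWAT, Ackr4, which scavenges Ccl19 and Ccl21a, was the only member to pass, at 0.545 and 0.757 FPKM with rosiglitazone and 2.49 and 1.76 FPKM with vehicle (log2 -0.91 ± 0.16 SE, adjusted p = 0.00534), beside 3.61% of all genes that fell and 1.29% that rose. The median change of all genes was 0.17, against 0.00 after rescaling. The K107R vehicle libraries are those with epididymal RNA, at 3564 and 3269 FPKM for the epididymis list against 0.416 and 5.6 with rosiglitazone, and in the other 14 libraries Ackr4 reached at most 1.18 FPKM. The part of the epididymis in this difference was not tested. Ackr4 met the limit of 1 FPKM in 2 or more libraries only through the K107R vehicle libraries. Its call is thus not independent of the choice of members. With the block, Ccl19, Ackr1, Cx3cr1 and Ccl2 also fell. Cxcl14 (log2 1.25), Cxcl9 (1.46) and Ccr1 (0.77) rose with it (5.88% of all genes fell, 5.05% rose). The groups differed in the shift between numbers, with median FPKM of 8.95 and 8.83 with rosiglitazone and 9.49 and 6.21 with vehicle. Ccr1 was at 6.79 and 6.89 FPKM with rosiglitazone and 5.39 and 2.3 with vehicle, a wider gap between the number 2 libraries. Omitting library 1 of K107R rosiglitazone took Ackr4 to an adjusted p of 0.0664.

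In WT eWAT, Ccl8 was the only member to pass, at 32.8 and 34.4 FPKM with rosiglitazone and 61.9 and 60.1 FPKM with vehicle (log2 -0.84 ± 0.13 SE, adjusted p = 0.0353), beside 0.278% of all genes that fell and 0.168% that rose. The libraries of each group were close together and the groups far apart. With the block 7 members fell and none rose (1.45% and 1.02% of all genes), and several of the additions were large: Ccl7 was at 6.13 and 4.4 FPKM with rosiglitazone and 27.4 and 19.5 with vehicle (log2 -1.96, adjusted p = 0.435, with the block 0.00414), and Cxcl10 at 2.14 and 1.34 FPKM with rosiglitazone and 8.4 and 5.21 with vehicle (log2 -1.49, adjusted p = 0.251, with the block 0.00153). Neither gene overlapped between the groups. The others were Cxcl13 (log2 -1.52), Ccl2 (-1.32), Ccl19 (-0.81) and Cx3cr1 (-0.79). Ccl8 lost its call under rescaling (adjusted p = 0.749) and without any 1 of the 4 libraries (0.255 to 0.295).

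**Figure D3:**
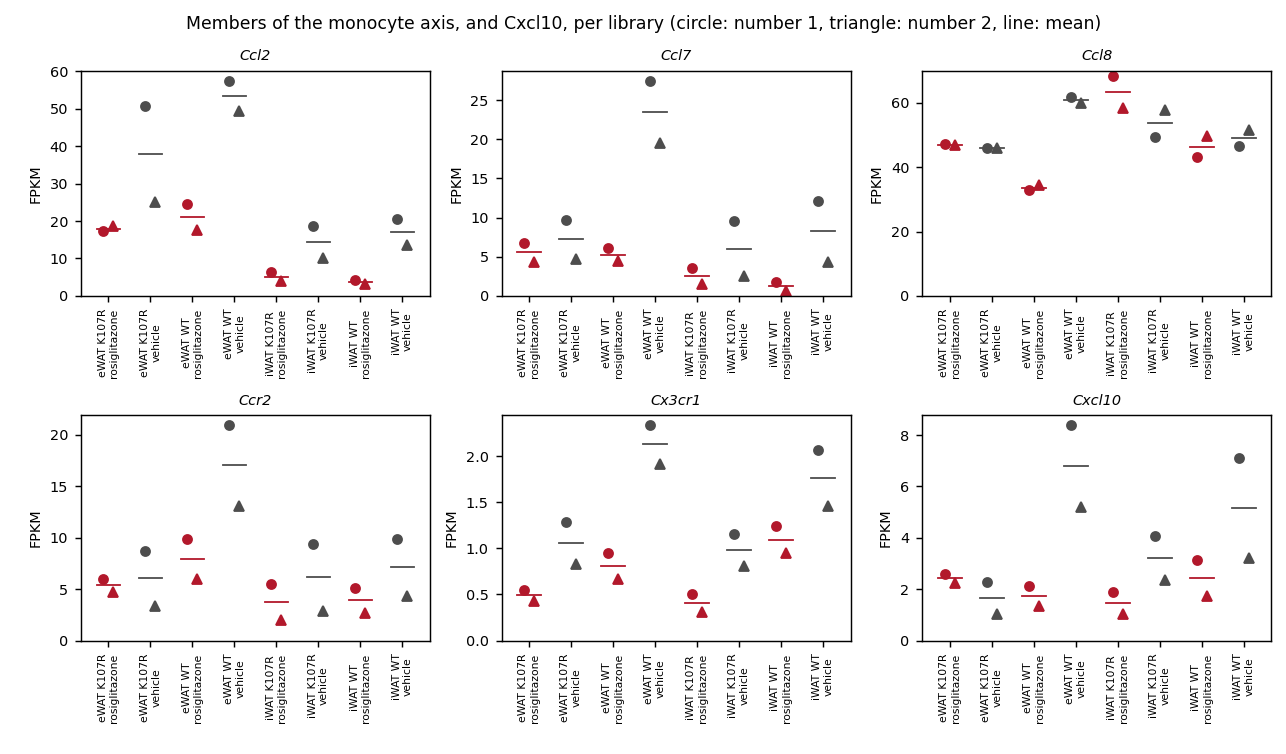
FPKM of Ccl2, Ccl7, Ccl8, Ccr2, Cx3cr1 and Cxcl10 in each library (circles for number 1, triangles for number 2, lines for the group mean; rosiglitazone red, vehicle grey; each axis starts at 0). Ccl2 in eWAT lies at 17.2 and 18.5 FPKM in K107R rosiglitazone and 24.5 and 17.6 in WT rosiglitazone, below the 50.9 and 25.2 of K107R vehicle and the 57.5 and 49.5 of WT vehicle, and WT vehicle eWAT holds the highest value of 5 of the 6 genes.

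In iWAT, Ccl2 fell with rosiglitazone in the average of the genotypes and in WT, while Ccl19, Ccl5, Ccr7, Cxcr5 and Ccr6 fell in K107R. Averaged over genotypes, 1 ligand and 1 receptor fell and none rose, or 4.65% of the members, beside 2.25% of all genes that fell and 3.11% that rose. Ccl2 was at 6.29 and 3.85 FPKM in K107R rosiglitazone and 4.14 and 3.3 in WT rosiglitazone, against 18.8 and 10.1 in K107R vehicle and 20.6 and 13.5 in WT vehicle (log2 -1.62 ± 0.27 SE, adjusted p = 0.00612), without overlap, and it passed whichever library was left out (0.00661 to 0.0317). Ccr6 was at 1.35 and 1.23 FPKM in K107R rosiglitazone and 7.69 and 9.23 in WT rosiglitazone, against 3.43 and 3.34 in K107R vehicle and 7.32 and 6.57 in WT vehicle (log2 -0.34 ± 0.09 SE, adjusted p = 0.0481). For Ccr6 the rosiglitazone libraries were below the vehicle libraries in K107R and above them in WT. With the block 8 members fell, Ccl7 (log2 -1.41), Cxcl10 (-0.79), Ccr2 (-0.60), Cx3cr1 (-0.44), Ccl19 (-0.36) and Cxcr5 (-0.29) among them, and Ccl25 (0.31) and Cxcr6 (0.28) rose (6.87% of all genes fell and 9.3% rose). Macrophage markers summed to 1121 and 1383 FPKM in K107R rosiglitazone and 1078 and 1431 in WT rosiglitazone, against 1293 and 1489 in K107R vehicle and 1188 and 1551 in WT vehicle, and none of the 8 was called, while 3 of 4 skeletal muscle genes fell. Rescaling took Ccr6 to an adjusted p of 0.285 and a pseudocount of 0.1 to 0.113, and over omitted libraries it ran from 0.0429 to 0.161, passing only without library 2 of WT rosiglitazone.

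In K107R iWAT 5 members fell with rosiglitazone and none rose, 11.6% of the members beside 2.28% of all genes that fell and 1.92% that rose. Ccl19 was at 9.17 and 14.5 FPKM with rosiglitazone and 29.2 and 34.5 with vehicle (log2 -1.38 ± 0.25 SE, adjusted p = 0.0106), and Ccl5 at 34.5 and 31 FPKM with rosiglitazone and 86.4 and 69 with vehicle (log2 -1.22 ± 0.26 SE, adjusted p = 0.026). Both ligands were lower in each rosiglitazone library than in either vehicle library. Ccr7, the receptor of Ccl19, was at 3.21 and 1.7 FPKM with rosiglitazone and 9.12 and 6.6 with vehicle (log2 -1.38 ± 0.29 SE, adjusted p = 0.0272), Cxcr5 at 1.91 and 1.38 FPKM with rosiglitazone and 6.21 and 4.12 with vehicle (log2 -1.21 ± 0.22 SE, adjusted p = 0.0129), and Ccr6 at 1.35 and 1.23 FPKM with rosiglitazone and 3.43 and 3.34 with vehicle (log2 -0.94 ± 0.12 SE, adjusted p = 0.00195). The 3 receptors did not overlap between treatments either. With the block 10 members fell and none rose (5.82% and 6.61% of all genes), the additions being Ccl2 (log2 -1.32), Ccl22 (-1.22), Cxcl13 (-1.03), Cxcl10 (-0.78) and Cx3cr1 (-0.49).

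Markers of lymphocytes moved with these genes. The B and plasma cell sum was 34.7 and 27.5 FPKM with rosiglitazone and 109 and 83.1 with vehicle in K107R iWAT, the T and NK cell sum 16.2 and 12 with rosiglitazone and 42.1 and 31 with vehicle, and the lymph node sum 22.1 and 19.1 with rosiglitazone and 65.3 and 49.7 with vehicle. Of the B and plasma cell list 2 of 6 genes fell, Cd79b among them, and of the other lists Cd4, Cd8a and Lck (3 of 7) and Glycam1, Fcer2a and Ltb (3 of 6) fell. Skeletal muscle genes fell too, 4 of 4, with a sum of 20.6 and 27.2 FPKM with rosiglitazone and 75.5 and 77.4 with vehicle in K107R iWAT, and the vehicle libraries held the highest muscle sums of all 16. The part of lymphocytes, lymph node or muscle in the change of the chemokine genes was not tested. Rescaling ended the call of Ccl19 (adjusted p = 0.193). Over omitted libraries the adjusted p of Ccr6 ran from 0.0127 to 0.0233 and always passed, that of Ccl5 ran from 0.0658 to 0.162 and never did, and those of Ccl19 (0.015 to 0.0911), Cxcr5 (0.0169 to 0.111) and Ccr7 (0.0364 to 0.21) passed without some libraries. Ccl19 was lost without library 1 with rosiglitazone or library 2 with vehicle, Cxcr5 without library 2 with rosiglitazone or library 1 with vehicle, and Ccr7 without any but library 1 with rosiglitazone.

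In WT iWAT, Ccl2 fell and Cxcr6 rose, each 1 of 43 members (2.33%), beside 0.775% of all genes that fell and 0.9% that rose. Ccl2 was at 4.14 and 3.3 FPKM with rosiglitazone and 20.6 and 13.5 with vehicle (log2 -1.91 ± 0.38 SE, adjusted p = 0.0381). Cxcr6, the receptor of Cxcl16, was at 3.97 and 3.53 FPKM with rosiglitazone and 2.13 and 1.9 with vehicle (log2 0.66 ± 0.14 SE, adjusted p = 0.0481). Neither overlapped, and both lost the call without any 1 of the 4 libraries (0.115 to 0.281 for Ccl2, 0.181 to 0.316 for Cxcr6), Cxcr6 also with a pseudocount of 0.1 (0.141). With the block 6 members rose and 5 fell (4.02% and 2.96% of all genes): Ccl19 (log2 0.66), Ccl5 (0.64), Ccl22 (0.71), Cxcr5 (0.62) and Ccr7 (0.66) joined Cxcr6, and Ccl7 (-1.98), Cxcl10 (-0.79), Cx3cl1 (-0.57) and Cx3cr1 (-0.40) joined Ccl2. The lymph node sum was 181 and 149.9 FPKM with rosiglitazone and 96.1 and 77.7 with vehicle, with Glycam1, Madcam1 and Ltb (3 of 6) higher, and the B and plasma cell sum 274 and 239 with rosiglitazone and 184 and 141 with vehicle, with 1 of 6 genes higher.

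**Figure D4:**
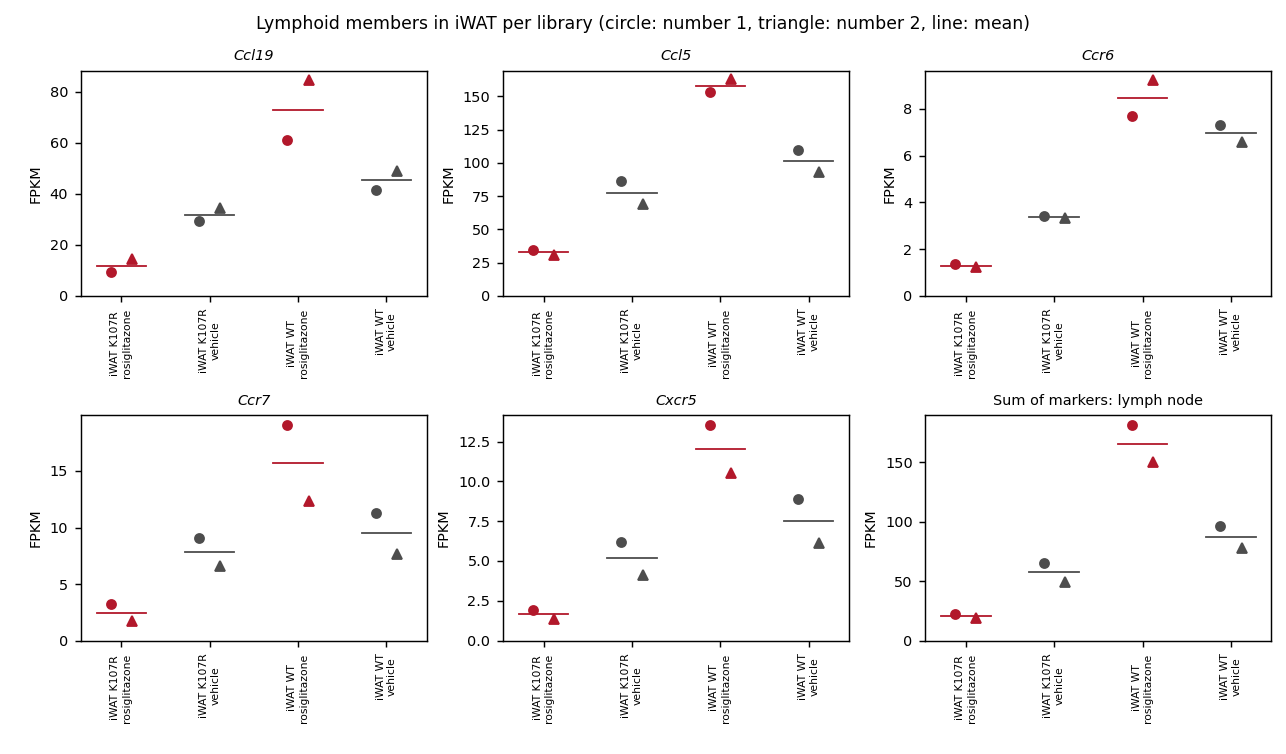
FPKM of Ccl19, Ccl5, Ccr6, Ccr7 and Cxcr5, and the summed FPKM of 6 lymph node genes, in the iWAT libraries (circles for number 1, triangles for number 2, lines for the group mean; rosiglitazone red, vehicle grey; each axis starts at 0). In all 6 panels the K107R rosiglitazone libraries are the lowest and the WT rosiglitazone libraries the highest, as for Ccl19 at 9.17 and 14.5 FPKM in K107R rosiglitazone and 60.9 and 84.5 in WT rosiglitazone.

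Under vehicle in eWAT, Ackr4 was higher and Xcl1 lower in K107R than in WT, and many more members were lower with the block. Of 43 members 1 was higher and 1 lower in K107R (2.33% each), beside 2.89% of all genes that were higher and 0.461% that were lower. The median log2 difference was -0.46 for the ligands and -0.40 for the receptors, against -0.13 for all genes. After rescaling these medians were -0.31 for the ligands, -0.30 for the receptors and 0.01 for all genes. Ackr4 was at 2.49 and 1.76 FPKM in K107R and 0.636 and 0.371 in WT (log2 1.05 ± 0.16 SE, adjusted p = 0.00239), and Xcl1 at 0.71 and 1.03 FPKM in K107R and 2.89 and 2.61 in WT (log2 -1.01 ± 0.19 SE, adjusted p = 0.0141). Neither overlapped between the genotypes. The K107R libraries of this comparison are those with epididymal RNA (3564 and 3269 FPKM in K107R and 0.0244 and 0.209 in WT for the epididymis list), and its part was not tested. Ackr4 met the limit for members only through these K107R libraries, so this call too is not independent of the choice.

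With the block 14 members were lower and 1 higher in K107R eWAT with vehicle (3.53% and 4.77% of all genes). The Cxcr3 ligand Cxcl10 was at 2.28 and 1.04 FPKM in K107R and 8.4 and 5.21 in WT (log2 -1.56, adjusted p = 0.0767, with the block 0.000106). Ccl7 was at 9.74 and 4.73 FPKM in K107R and 27.4 and 19.5 in WT (log2 -1.62, adjusted p = 0.365, with the block 0.00346), and its receptor Ccr2 at 8.74 and 3.36 FPKM in K107R and 20.9 and 13.1 in WT (log2 -1.43, adjusted p = 0.509, with the block 0.00396). In all 3 genes both K107R libraries were below both WT libraries. Lower with the block were also Cxcl13 (log2 -1.62), Cxcl9 (-1.32), Cxcr5 (-0.72), Ccl5 (-0.68), Cx3cr1 (-0.61), Cxcl2 (-0.59), Ackr1 (-0.55), Cxcr6 (-0.55) and Ccl4 (-0.40). T and NK cell markers summed to 6.13 and 4.93 FPKM in K107R and 19.1 and 15.3 in WT, with Cd4, Lck, Nkg7 and Ncr1 (4 of 7) lower, and B and plasma cell markers to 16.2 and 9.06 in K107R and 55.8 and 37.2 in WT, with 3 of 6 genes lower, Cd79b and Mzb1 among them, while macrophage markers, at 3780.5 and 4160.1 in K107R and 4229 and 5159 in WT, were not called. What part these cells had was not tested. Over omitted libraries Ackr4 always passed (0.00258 to 0.038), and Xcl1 (0.036 to 0.14) passed only without library 2 of K107R vehicle.

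Under rosiglitazone no member differed between the genotypes in eWAT by limma's adjusted p, beside 0.556% of all genes that were higher and 0.351% that were lower. At an unadjusted p under 0.05, 2 members were higher and 2 lower in K107R, and with the block only Ackr1 passed as lower (log2 -0.58, adjusted p = 0.457, with the block 0.0353). The 2 members with the smallest p were Ccl8, at 47.2 and 46.9 FPKM in K107R and 32.8 and 34.4 in WT (log2 0.47 ± 0.13 SE, adjusted p = 0.219), and Ackr1, at 4.6 and 5.07 FPKM in K107R and 6.94 and 8.58 in WT. Both stood without overlap between genotypes, yet neither passed.

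In iWAT with vehicle, 1 ligand and 1 receptor were lower in K107R and none higher (4.65% of the members, beside 0.168% of all genes lower and 0.41% higher). Ccr6 was at 3.43 and 3.34 FPKM in K107R and 7.32 and 6.57 in WT (log2 -0.86 ± 0.12 SE, adjusted p = 0.0132), and Xcl1 at 2.56 and 2.13 FPKM in K107R and 7.0 and 5.53 in WT (log2 -1.12 ± 0.19 SE, adjusted p = 0.0335). Both genes had each K107R library under each WT library. With the block Cxcr3 (log2 -0.59) and Cx3cr1 (-0.48) were lower as well (1.13% of all genes were lower and 0.988% higher). Both calls made without the block were lost without any 1 of the 4 libraries (0.0535 to 0.148 for Ccr6 and 0.106 to 0.35 for Xcl1), that of Ccr6 under rescaling (0.299), and both with a pseudocount of 0.1 (0.148 for Ccr6 and 0.0903 for Xcl1). The lymph node sum was 65.3 and 49.7 FPKM in K107R and 96.1 and 77.7 in WT. The skeletal muscle sum was 75.5 and 77.4 FPKM in K107R and 21.4 and 24.3 in WT, with 3 of 4 genes higher in K107R, and its part was not tested.

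In iWAT under rosiglitazone, 4 ligands and 5 receptors were lower in K107R and none was higher. These 9 compare with 2 members in eWAT under vehicle, but with the block each of these comparisons had 15, and with block and rescaling iWAT under rosiglitazone had 17 and eWAT under vehicle 19. The 9 are 20.9% of the members, beside 3.14% of all genes that were lower and 0.995% that were higher. Ccl19 was at 9.17 and 14.5 FPKM in K107R and 60.9 and 84.5 in WT (log2 -2.54 ± 0.25 SE, adjusted p = 0.000176), and its receptor Ccr7 at 3.21 and 1.7 FPKM in K107R and 19 and 12.4 in WT (log2 -2.28 ± 0.29 SE, adjusted p = 0.00118). Cxcr5 was at 1.91 and 1.38 FPKM in K107R and 13.5 and 10.5 in WT (log2 -2.30 ± 0.22 SE, adjusted p = 0.000176). These 3 genes set the genotypes far apart, with no overlap. Ccr6 was at 1.35 and 1.23 FPKM in K107R and 7.69 and 9.23 in WT (log2 -2.04 ± 0.12 SE, adjusted p = 1.02e-05), and Ccl5 at 34.5 and 31 FPKM in K107R and 154 and 163 in WT (log2 -2.24 ± 0.26 SE, adjusted p = 0.000536). Cxcr6 was at 1.36 and 1.22 FPKM in K107R and 3.97 and 3.53 in WT (log2 -1.05 ± 0.14 SE, adjusted p = 0.00126). These too did not overlap, and the adjusted p of all 6 stayed under 0.05 whichever library was left out, with 0.0176 as the highest value, that of Cxcr6.

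The smaller differences were those of Cxcr3, a receptor of effector T and NK cells, at 2.01 and 2.54 FPKM in K107R and 4.43 and 5.42 in WT (log2 -0.86 ± 0.15 SE, adjusted p = 0.0075), Xcl1, at 2.18 and 1.65 FPKM in K107R and 4.98 and 3.58 in WT (log2 -0.85 ± 0.19 SE, adjusted p = 0.0344), and Ccl22, at 2.87 and 1.72 FPKM in K107R and 11.3 and 6.83 in WT (log2 -1.60 ± 0.36 SE, adjusted p = 0.0365). None overlapped between the genotypes. Ccl21a, the other ligand of Ccr7, did not pass (log2 -2.97, adjusted p = 0.17, with the block 0.0806), at 8.04 and 18.2 FPKM in K107R and 96.5 and 107.5 in WT. Over omitted libraries Ccl22 always lost its call (0.0556 to 0.304), Xcl1 passed only without library 2 of WT rosiglitazone (0.0433 to 0.297; 0.0596 with a pseudocount of 0.1), and Cxcr3 was lost without library 1 of K107R or library 2 of WT (0.0211 to 0.0831) and under rescaling (0.251). With the block 12 members were lower and 3 higher in K107R (6.45% and 2.92% of all genes). Cxcl13 (log2 -1.88), Cxcr2 (-0.74) and Cx3cr1 (-0.57) joined the lower ones, and Cxcl1 (1.20), Cx3cl1 (0.52) and Ccl8 (0.44) were the higher ones.

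Lymphocyte and lymph node markers ran in parallel to these differences. In iWAT with rosiglitazone the B and plasma cell sum was 34.7 and 27.5 FPKM in K107R and 274 and 239 in WT, with 5 of 6 genes lower, Cd79a and Ms4a1 among them, the T and NK cell sum 16.2 and 12 in K107R and 87.3 and 73.4 in WT, with Cd4, Cd8a, Lck and Nkg7 (4 of 7) lower, and the lymph node sum 22.1 and 19.1 in K107R and 181 and 149.9 in WT, with Glycam1, Cr2, Fcer2a and Ltb (4 of 6) lower. The lists share some biology with the members, since B and T cells carry Cxcr5, Ccr6 and Ccr7, and what part the number of these cells had was not tested. The macrophage sum was 1121 and 1383 FPKM in K107R and 1078 and 1431 in WT, and none of its 8 genes was called. The skeletal muscle sum was 20.6 and 27.2 FPKM in K107R and 9.47 and 13.1 in WT, with 3 of 4 genes higher in K107R, and its part was not tested. This comparison and the rosiglitazone comparison within K107R share the 2 iWAT K107R rosiglitazone libraries, so their lists are not independent.

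Whether rosiglitazone acted differently in the genotypes was tested by the interaction, the rosiglitazone change in K107R minus that in WT. In eWAT, 1 member passed, Ccl8, with the change in K107R above that in WT (log2 0.87 ± 0.18 SE, adjusted p = 0.0344), beside 0.234% of all genes in that direction and 2.3% in the other. Its rosiglitazone change was 0.03 in K107R and -0.84 in WT. The call was lost without any 1 of the 8 eWAT libraries (0.0923 to 0.154) and under rescaling (0.997), which put the median interaction of all genes at -0.02, against 0.15 as deposited. With the block 4 members were above 0, Ccl8 with Cxcl10 (log2 1.89), Ccl7 (1.67) and Cxcl9 (2.09), and Ackr4 was below it (-0.95). Of all genes 0.863% were above and 3.34% below. The interaction includes eWAT K107R rosiglitazone, which followed the shift between the numbers least.

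In iWAT the interaction was below 0 for 4 members and above 0 for none (9.3% of the members, beside 0.885% of all genes below and 0.0805% above). Ccl19 had a rosiglitazone change of -1.38 in K107R and 0.66 in WT (interaction log2 -2.04 ± 0.35 SE, adjusted p = 0.0227), and Ccl5 one of -1.22 in K107R and 0.64 in WT (interaction log2 -1.86 ± 0.36 SE, adjusted p = 0.0496). Cxcr5 had a change of -1.21 in K107R and 0.62 in WT (interaction log2 -1.83 ± 0.31 SE, adjusted p = 0.0246), and Ccr6 one of -0.94 in K107R and 0.25 in WT (interaction log2 -1.19 ± 0.17 SE, adjusted p = 0.00943). In all 4 the change was below 0 in K107R and above 0 in WT. With the block Ccr7 (log2 -2.04), Ccl22 (-1.92), Cxcl13 (-1.60) and Cxcr6 (-0.75) were below 0 as well (2.16% of all genes). Over omitted libraries the adjusted p of Ccr6 ran from 0.0163 to 0.0533 (lost without library 2 of K107R rosiglitazone), of Cxcr5 from 0.0198 to 0.117, of Ccl19 from 0.0226 to 0.106 and of Ccl5 from 0.0781 to 0.22, which ended 1, 5, 6 and 8 of 8 calls. Cxcr5 passed only without library 2 of K107R vehicle, library 2 of WT rosiglitazone or library 1 of WT vehicle, and Ccl19 only without library 2 of K107R rosiglitazone or library 1 of WT rosiglitazone. Rescaling ended the calls of Ccl19 (0.511) and Ccr6 (0.219), a pseudocount of 0.1 those of Ccl5 (0.0632), Ccr6 (0.0655) and Cxcr5 (0.113), and testing all genes with no filter that of Ccl5 (0.0515). Markers of lymphocytes had the same sign, with Cd4, Cd8a and Lck (3 of 7), 2 of 6 B and plasma cell genes, Cd79b among them, and Glycam1 and Ltb (2 of 6) below 0, and their part was not tested.

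**Figure D5:**
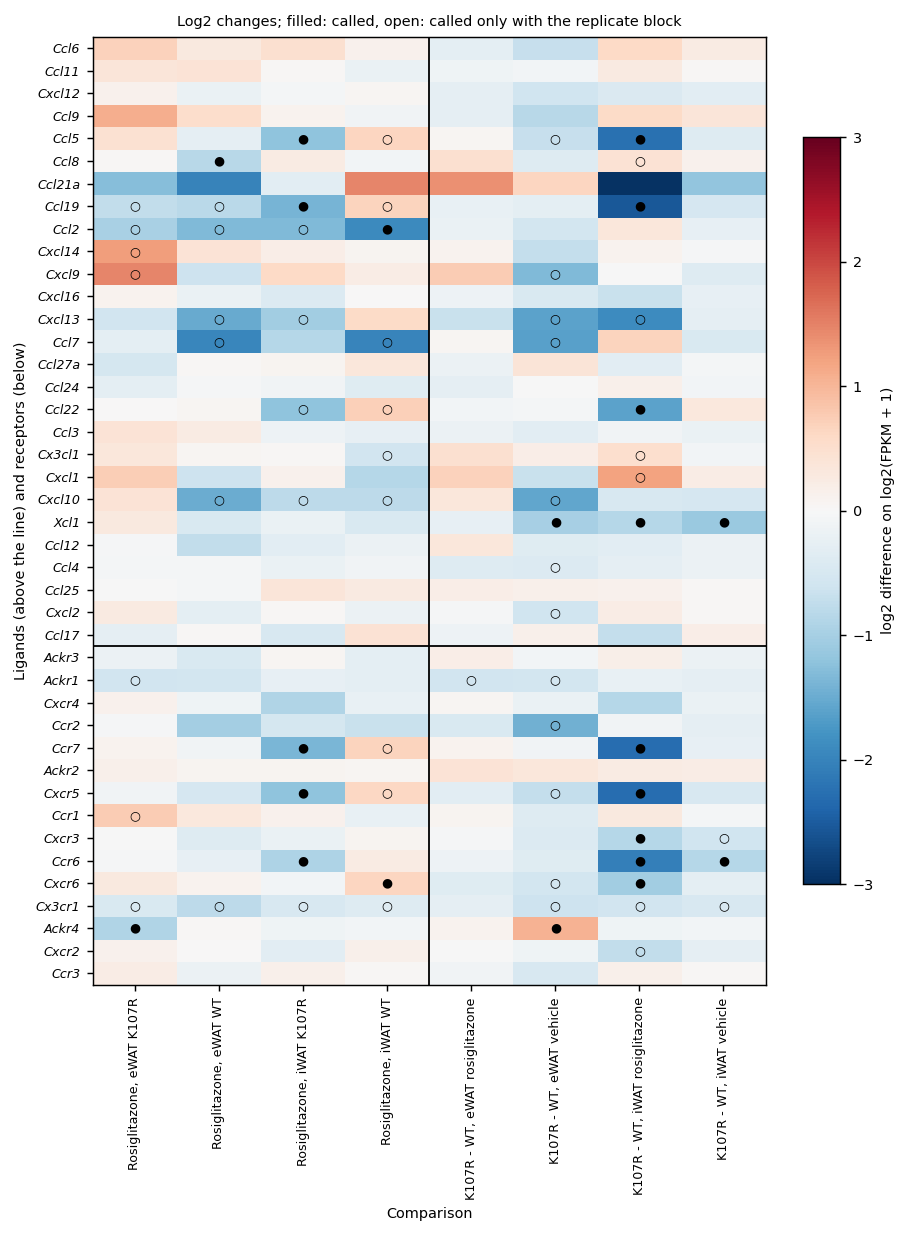
Change of 42 of the 43 members (rows, ligands above the line and receptors below it) in 8 comparisons (columns: rosiglitazone minus vehicle on the left, K107R minus WT on the right), as the difference on the log2(FPKM + 1) scale by colour from blue (lower) to red (higher). Filled dots mark members that passed and open dots those that passed only with the replicate block; the column of K107R minus WT in iWAT under rosiglitazone holds 9 filled dots, and that of eWAT under rosiglitazone none.

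Outside the depot comparison 33 calls were made on members, all with a spread shared by the 16 libraries. When each depot was fitted on its own 8 libraries, 24 of them were lost. The 9 that passed were the rosiglitazone averages of Cx3cr1 and Ccl19 in eWAT, Ackr4 with rosiglitazone in K107R eWAT, Ackr4 and Xcl1 between genotypes in eWAT with vehicle, and Ccr6, Cxcr5, Ccl19 and Ccl5 between genotypes in iWAT with rosiglitazone.

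Genes that act with chemokines were counted beside the members. Of 41 genes of signal transduction below the receptors, 16 were higher and 1 lower in eWAT than in iWAT (39% and 2.44%, beside 19.9% and 12.5% of all genes), led by Rgs1, which ends receptor signals (log2 2.80). With rosiglitazone, the focal adhesion kinase relative Ptk2b rose in the genotype average of eWAT (log2 0.35) and of iWAT (0.44). In iWAT under rosiglitazone 5 of the 41 were lower in K107R (12.2%, beside 3.14% of all genes), led by the leukocyte PI3-kinase subunit Pik3cd, at 7.45 and 8.52 FPKM in K107R and 22.3 and 26 in WT (log2 -1.48, adjusted p = 0.000119), and the phospholipase Plcb2 (log2 -1.40). In K107R iWAT, Plcb2 (log2 -0.81) and Pik3cd (-0.74) fell with rosiglitazone, and Pik3cd passed the interaction (-1.05).

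Among 11 chemokine-like genes outside the names used, 7 were higher and 2 lower in eWAT (63.6% and 18.2%, beside 19.9% and 12.5% of all genes), led by the MARVEL-domain protein Cmtm3 (log2 1.31) and the atypical receptor Ccrl2 (1.27). Cmklr1, the receptor of chemerin, fell with rosiglitazone in both depots. In iWAT it was at 19.1 and 17.9 FPKM in K107R rosiglitazone and 20.7 and 21.7 in WT rosiglitazone, against 53.5 and 48.3 in K107R vehicle and 61 and 59.1 in WT vehicle (average log2 -1.44, adjusted p = 1.15e-05), and it passed in K107R (log2 -1.41) and in WT (-1.46). In eWAT it was at 30.8 and 27.7 FPKM in K107R rosiglitazone and 37.6 and 34.3 in WT rosiglitazone, against 43.1 and 39.3 in K107R vehicle and 49.2 and 45.3 in WT vehicle (average log2 -0.43, adjusted p = 0.0124). No rosiglitazone library reached a vehicle library of the same depot. Cd74, a receptor of Mif, fell in the eWAT average (log2 -0.55), and Cd74 (-1.13) and Cmtm7 (-0.85) were lower in K107R in iWAT under rosiglitazone. In the iWAT average Pitpnm3 (log2 -0.42) and the platelet and macrophage ligand Pf4 (-0.34) fell with Cmklr1.

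Of 21 enzymes and proteoglycans that trim or hold chemokines, 10 were higher and 2 lower in eWAT (47.6% and 9.52%, beside 19.9% and 12.5% of all genes), led by the macrophage elastase Mmp12 (log2 4.02) and the syndecan Sdc1 (2.31). With rosiglitazone the gelatinase Mmp9 (log2 -0.70) and the basement membrane proteoglycan Hspg2 (-0.38) fell in the eWAT average, and Mmp14 (-0.75) and Hspg2 (-0.55) in the iWAT average. Mmp9 was at 1.17 and 1.2 FPKM in K107R rosiglitazone, 1.39 and 1.15 in K107R with vehicle, 1.06 and 0.982 in WT with rosiglitazone and 4.39 and 3.9 in WT vehicle in eWAT. WT vehicle stood apart from the other 3 groups. In WT eWAT, Mmp9 fell with rosiglitazone (log2 -1.35). Under vehicle Mmp9 was lower in K107R in eWAT (log2 -1.18) and in iWAT (-0.99), and its eWAT interaction was 1.30 (adjusted p = 0.00736). The mast cell and neutrophil protease Ctsg rose with rosiglitazone in WT eWAT (log2 0.64), was lower in K107R eWAT under rosiglitazone (-0.72) and had an interaction of -0.79.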

How the data were processed

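RNA of epididymal and inguinal fat was sequenced from 16 libraries (4 ug total RNA each, 75-nt reads, per the labels' protocols). The deposited values are FPKM per gene, made by the authors. The submitters' processing notes name Cufflinks 2.2.1, TopHat2 2.0.12, CASAVA 1.8.2 and, as build, mm10. The annotation, the strand setting and any scaling between libraries are not given in the sources used here. Without strand, reads of a gene and an antisense partner cannot be told apart. The table holds no counts, so depth is unknown and no counting interval is given.

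Genes that reached 1 FPKM or more in 2 or more libraries (13669 of 14023) were tested on log2(FPKM + 1) with limma 3.58.1 in R 4.3.3, with a mean for each of the 8 groups, a spread trend and a spread shared by all 16 libraries. P-values were adjusted by Benjamini-Hochberg over all genes tested and a gene passed at an adjusted p under 0.05. The fit was tested before use on simulated libraries that vary independently. They held no shift by replicate number, so the test does not cover the shift seen here. Members and lists were chosen with earlier results of these data known. By rule, members that passed are named with their values in every library, as are the 6 ligands and 5 receptors with the highest mean among those that did not (4 such receptors were left), and up to 2 genes of each other list per comparison. One receptor, 1 marker gene and 1 gene of another list are counted but are not reported here. Marker genes and members that passed only with the block are named because of their values.

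The deviations of same-numbered libraries from their group means correlated in 28 of 28 pairs of groups (0.121 to 0.791), each over 0.1. Pairs with eWAT K107R rosiglitazone were the lowest (0.121 to 0.281), and no other pair was under 0.501. The replicate number was therefore also fitted as a block. The block takes the same shift for all groups, so it may fit eWAT K107R rosiglitazone less well than the others. These correlations cannot tell a true pairing from a shift shared by all libraries of a number. The labels do not say what the number stands for. Alternatives were the replicate block, a median-ratio rescaling, both together, a pseudocount of 0.1, no filter, each depot alone and each library left out. Promoter windows came from RefSeq. Protein sequences were not used here.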

Additional observations from a re-analysis of the deposited data

Results flagged for a closer look

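In eWAT the rosiglitazone response of Ccl8 differed between the genotypes by the interaction test: the change in K107R minus that in WT was 0.87 on the log2(FPKM + 1) scale, with 0.03 in K107R and -0.84 in WT. In iWAT the same test marked 4 members. The change in K107R minus that in WT was -2.04 for Ccl19, -1.86 for Ccl5, -1.83 for Cxcr5 and -1.19 for Ccr6. For each of the 4 the rosiglitazone change was below 0 in K107R and above 0 in WT. None of these interaction calls, in eWAT or iWAT, held when each depot was fitted on its own libraries. Rescaling ended those of Ccl8, Ccl19 and Ccr6. The groups hold 2 libraries each, so no library was checked for lying far from its group.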

How the results depend on the processing

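Of 61 calls on members, 34 held whichever library was left out, 9 of them outside the depot comparison, and no value reversed under any alternative. Counts of members called are given for the rosiglitazone average in eWAT and iWAT, for rosiglitazone in K107R eWAT, WT eWAT, K107R iWAT and WT iWAT, for K107R against WT in eWAT vehicle, eWAT rosiglitazone, iWAT vehicle and iWAT rosiglitazone, and for the eWAT and iWAT interaction. The counts as reported were 4, 2, 1, 1, 5, 2, 2, 0, 2, 9, 1 and 4. The replicate block treats the numbers as pairing the libraries, which the labels do not state. With it the counts were 12, 10, 8, 7, 10, 11, 15, 1, 4, 15, 5 and 8, and it ended none of the calls. With the block and rescaling together, chosen after seeing the data, they were 17, 15, 11, 9, 17, 14, 19, 3, 4, 17, 8 and 11, and 1 call was lost, that of Ccl8 in the eWAT interaction (adjusted p = 0.245). Rescaling alone ended 11 calls and gave 8, 8, 4, 4, 8 and 7 for the rosiglitazone comparisons in that order, 6 for K107R against WT in eWAT vehicle and 2 for the eWAT interaction. Each depot fitted alone gave 2 and 0 for the averages, 0 for rosiglitazone in WT eWAT, K107R iWAT and WT iWAT, 4 for K107R against WT in eWAT vehicle, 0 in iWAT vehicle, 4 in iWAT rosiglitazone, and 0 for both interactions. A pseudocount of 0.1 ended 9 calls and gave 1 for the iWAT average, 1 for WT iWAT, 5 for K107R against WT in eWAT vehicle, 0 in iWAT vehicle and 1 for the iWAT interaction, and omitting the filter ended 1 call. Leaving out 1 library at a time gave 25 to 28 members for the depots (28 as reported), 0 to 3 and 1 to 2 for the averages, 0 to 1 for K107R eWAT, 0 for WT eWAT, 2 to 3 for K107R iWAT, 0 for WT iWAT, 1 to 2 for K107R against WT in eWAT vehicle, 0 in eWAT rosiglitazone, 0 in iWAT vehicle, 6 to 7 in iWAT rosiglitazone, 0 to 1 for the eWAT interaction and 1 to 3 for the iWAT interaction. With a library left out its group has 1 library, which is assumed to vary like the other groups. The causes of these shifts were not tested.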
